A study of Rattus norvegicus with 32 samples.

Results

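The 7 genes described here belong to cholesterol synthesis and its control in liver sinusoidal endothelial cells (LSECs), the fenestrated cells that line the hepatic sinusoids. They were taken by symbol from the 32623 genes counted in every library. The members are Srebf2 (ENSRNOG00000007400), Insig1 (ENSRNOG00000006859), Hmgcs1 (ENSRNOG00000016552), Idi1 (ENSRNOG00000016690), Fdft1 (ENSRNOG00000021314), Sqle (ENSRNOG00000009550) and Lss (ENSRNOG00000054549). None of these is itself an uptake gene, and genes of cholesterol uptake are described as a separate list. All 7 had enough counts to be tested in every comparison.

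RNA of LSECs was sequenced in 32 libraries, of which 22 belong to the carbon tetrachloride (CCl4) model and 10 to a thioacetamide (TAA) experiment. CCl4, a hepatotoxin, was inhaled by male Wistar Han rats for 2 weeks (acute, n = 5), 6 weeks (fibrosis, n = 5) or 12 to 14 weeks (cirrhosis, n = 6), and untreated Wistar Han rats served as healthy controls (n = 6). The duration of the cirrhosis libraries comes from the description of the study, since their own labels state only CCl4 treatment. The study describes phenobarbital in the drinking water of the CCl4 model and does not state whether healthy controls received it. In the TAA experiment, 5 libraries are labelled control and 5 TAA control. Which of these groups received TAA is not settled by the labels or the study, and the strain is Wistar Han in the labels but Sprague-Dawley in the study. No direction of treatment was therefore given to that comparison.

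Cholesterol is built from acetyl-CoA through the mevalonate pathway, squalene and a series of sterols. The transcription factor SREBP2, encoded by Srebf2, turns on most enzymes of this route when sterols in the endoplasmic reticulum are scarce. When sterols are plentiful, INSIG proteins hold SREBP2 and its escort SCAP in the endoplasmic reticulum. Insig1 is itself an SREBP target, which closes a feedback loop. Hepatocytes are the main site of cholesterol synthesis in the liver, and LSECs are known for scavenger receptor endocytosis of modified lipoproteins.

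Promoter sequences of the regulator and of the pair of members that moved in opposite directions between fibrosis and cirrhosis are shown. Each holds the 250 bases before the annotated start site in RefSeq (build GRCr8), 5′ to 3′ on the strand of the gene. The reads were mapped to another build, Rnor_6.0. Capitals mark the CCAAT box (CCAAT on either strand, read as ATTGG on the other) and the SRE-like letters TCACNCCA, a form of the sterol regulatory element bound by SREBP.
Srebf2, chr7:115543057-115543306, plus strand: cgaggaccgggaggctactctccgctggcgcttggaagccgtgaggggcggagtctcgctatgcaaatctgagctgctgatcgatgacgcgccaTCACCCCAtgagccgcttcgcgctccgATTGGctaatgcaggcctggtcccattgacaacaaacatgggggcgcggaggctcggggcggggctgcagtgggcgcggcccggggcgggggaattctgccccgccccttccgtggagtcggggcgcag
Insig1, chr4:8057770-8058019, minus strand: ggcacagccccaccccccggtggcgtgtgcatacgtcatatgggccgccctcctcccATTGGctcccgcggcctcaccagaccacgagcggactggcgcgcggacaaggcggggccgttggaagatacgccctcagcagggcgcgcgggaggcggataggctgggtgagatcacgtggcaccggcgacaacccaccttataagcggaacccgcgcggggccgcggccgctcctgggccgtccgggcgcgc
Hmgcs1, chr2:53382054-53382303, plus strand: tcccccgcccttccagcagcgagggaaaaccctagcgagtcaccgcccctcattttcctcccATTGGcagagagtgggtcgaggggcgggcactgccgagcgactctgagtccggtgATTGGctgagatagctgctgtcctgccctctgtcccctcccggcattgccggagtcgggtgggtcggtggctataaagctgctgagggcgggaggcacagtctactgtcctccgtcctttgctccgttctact

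RefSeq promoters were matched for 5 of the 7 members, namely Srebf2, Insig1, Hmgcs1, Idi1 and Lss, and both strands were searched. A CCAAT box was found in 5 of 5, against 34.3% of all 27457 promoters of this length and 10 of 13 promoters of other cholesterol synthesis enzymes (76.9%). The SRE-like letters were found in Srebf2, from base -156 to base -149 before the start site, and in no other of the 5, against 3.25% of all promoters. A GC box (GGGCGG) was found in 4 of 5, all but Idi1, against 32.4% of all promoters and 12 of 13 of the other synthesis enzymes (92.3%). The E-box CACGTG was found in Insig1, against 5.79% of all promoters. Of the 13 promoters of other synthesis enzymes, 1 held the SRE-like letters (7.69%) and 1 the E-box (7.69%). These motifs do not overlap one another in the windows shown. Such matches describe letters in a window and say nothing of binding in these cells.

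**Figure D1:**
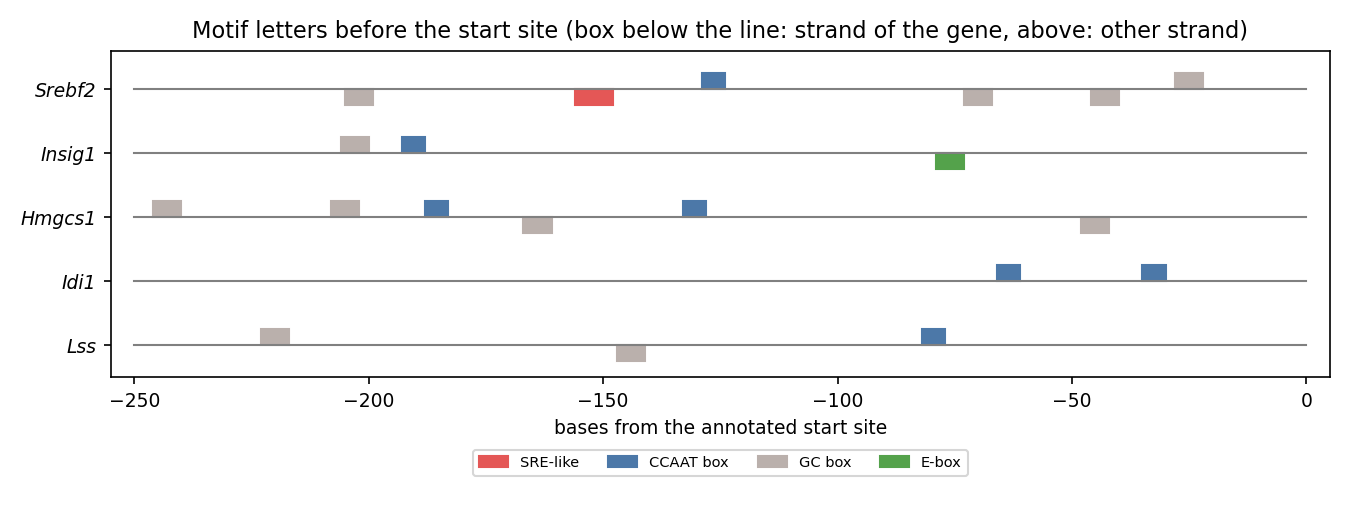
Positions of motif letters in the 250 bases before the start site of the 5 members with a RefSeq promoter, in bases from the start site (x axis), 1 line per gene. Boxes below the line lie on the strand of the gene and boxes above it on the other strand, with the palindromic E-box drawn once. Every line carries at least 1 CCAAT box, and the SRE-like box appears in Srebf2.

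Totals per library ranged from 25646531 to 46464289 expected counts. Levels are given in CPM, the share of a library's counts on a scale that makes libraries of different size comparable, scaled with TMM factors over the 22 CCl4 libraries or, separately, over the 10 libraries of the TAA experiment, so that levels are not compared between these sets or, without gene lengths, between genes. A gene was called when its limma-voom adjusted p was under 0.05 and its fold change above 1.5. Replicates are labelled as separate libraries, and p-values measure the spread between them. All 12 LSEC markers (among them Stab1, Stab2 and Lyve1) were detected in every group, but their summed level was 16910 to 29140 CPM in healthy and 13850 to 18090 CPM in cirrhotic libraries, against 2319 to 2828 CPM in acute and 1572 to 2658 CPM in fibrosis libraries. The 12 hepatocyte markers (among them Alb, Ttr and Apob) summed to 1409 to 29920 CPM in healthy, 151 to 953 CPM in acute, 1371 to 5482 CPM in fibrosis and 3206 to 15560 CPM in cirrhosis libraries. Healthy replicates 3 and 5 were low in these markers, at 3872 and 1409 CPM, against at least 15800 CPM in the other 4. Early response genes induced by tissue dissociation (10 genes such as Fos and Egr1) summed to 45050 to 75250 CPM in healthy libraries to 934 to 3335 CPM in acute and fibrosis libraries and to 22970 to 45550 CPM in cirrhosis libraries. Macrophage markers (8 genes) summed to 283 to 2666 CPM in healthy, 65.9 to 201 CPM in acute, 28.8 to 176 CPM in fibrosis and 675 to 2465 CPM in cirrhosis libraries. Stellate cell markers (9 genes found) summed to 284 to 785 CPM in healthy, 1315 to 2132 CPM in acute, 1301 to 1746 CPM in fibrosis and 626 to 1926 CPM in cirrhosis libraries. Most of the acute and fibrosis sums was Reln, at 118 to 216 CPM in healthy, 1305 to 2123 CPM in acute and 1174 to 1570 CPM in fibrosis libraries. In acute injury 1 of the 9 was called higher and 6 lower, against 35.5% and 37.9% of all genes. In fibrosis 3 were higher and 3 lower, against 35.3% and 34.9%. General endothelial markers (7 genes found) summed to 12220 to 19170 CPM in healthy, 2450 to 4063 CPM in acute and fibrosis libraries and 8410 to 10380 CPM in cirrhosis libraries. In acute injury 5 of the 7 were called lower and 1 higher, against 37.9% and 35.5% of all genes. In fibrosis 5 were lower and 0 higher, against 34.9% and 35.3%. Cdh5 was 775 to 1762 CPM in healthy, 1324 to 2154 CPM in acute and 887 to 1210 CPM in fibrosis libraries. Cholangiocyte, lymphocyte, neutrophil and proliferation markers summed to at most 108, 189, 44.9 and 79.4 CPM in any CCl4-series library. These levels moved with the same groups as the results on Insig1 and the pathway lists, and their part in those results was not tested. The labels give no batch or preparation date, so a difference in preparation between the acute and fibrosis libraries and the healthy ones cannot be told apart from the stage of injury. In bulk samples, fewer cells of a type and less RNA per cell cannot be told apart.

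Insig1 was the member that differed most from healthy LSECs in acute injury and fibrosis. Its level was 172, 147, 163, 157, 193 and 253 CPM in healthy replicates 1 to 6. After 2 weeks of CCl4 it was 334, 344, 413, 302 and 821 CPM in replicates 1, 2, 3, 4 and 8. Every acute library lay above every healthy one, and replicate 8 was far above the other 4. After 6 weeks Insig1 was 599, 715, 714, 589 and 484 CPM in replicates 12, 13, 15, 16 and 17, again without overlap with healthy libraries. In cirrhosis it was 252, 205, 249, 281, 243 and 207 CPM in replicates 1 to 6, a range that overlapped with healthy and lay below every acute library.

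The rise of Insig1 was 2.37-fold in acute injury, a log2 fold change of 1.25 with a standard error (SE) of 0.256 (limma-voom adjusted p = 0.000718). In fibrosis the rise was 3.62-fold, a log2 fold change of 1.85 (SE 0.168, limma-voom adjusted p = 1.18e-06). The cirrhosis libraries had a log2 fold change of 0.43 against healthy (SE 0.144, limma-voom adjusted p = 0.0208), which is under the fold threshold. Between fibrosis and cirrhosis, Insig1 fell 2.58-fold, with a log2 fold change of -1.37 (SE 0.119, limma-voom adjusted p = 5.23e-07). These calls were kept in all 21, 20 and 19 alternatives run for the acute, fibrosis and cirrhosis-against-fibrosis comparisons, including those without single libraries. Among them, unadjusted p-values and no fold threshold only loosen the rule on the same fit, so no call could be lost under these. Between acute injury and fibrosis the log2 difference was 0.65 (limma-voom adjusted p = 0.0858), and without acute replicate 8 it was 0.90 (adjusted p = 0.00246). The expected counts of Insig1 were not whole in most libraries, where some reads had been split with other features by estimate.

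Fdft1, which encodes squalene synthase at the branch point to sterols, was lower in injured LSECs. Healthy replicates 1 to 6 had 51.0, 59.0, 23.95, 64.8, 32.2 and 55.7 CPM. Acute libraries had 19.0, 21.0, 21.6, 33.6 and 17.996 CPM, and fibrosis libraries 23.3, 28.6, 23.2, 28.2 and 27.4 CPM. The acute range reached healthy replicates 3 and 5, and the fibrosis range reached replicate 3 alone. Fdft1 fell 1.99-fold in acute injury (log2 fold change -0.996, SE 0.285, limma-voom adjusted p = 0.00655) and 1.66-fold in fibrosis (log2 fold change -0.73, SE 0.261, limma-voom adjusted p = 0.0234). In cirrhosis, with 25.7 to 36.5 CPM, the log2 fold change was -0.54 (limma-voom adjusted p = 0.0668).

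The 2 healthy libraries low in Fdft1 were also the 2 low in hepatocyte markers. With these 2 as the only healthy libraries, an alternative chosen after the data were examined, the log2 fold changes of Fdft1 were -0.15 in acute injury (limma-voom adjusted p = 0.637), -0.02 in fibrosis (adjusted p = 0.908) and 0.16 in cirrhosis (adjusted p = 0.539). Those of Insig1 were 1.39, 1.86 and 0.44 in the same comparisons. Because these 2 were the healthy libraries lowest in Fdft1, its smaller fall was fixed by the choice, and no conclusion is drawn from it. Without TMM factors Fdft1 was not called either, at -0.58 in acute injury (adjusted p = 0.11) and -0.33 in fibrosis (adjusted p = 0.307). The call of Fdft1 in fibrosis was also lost without fibrosis replicate 12 (adjusted p = 0.0555) or replicate 15 (adjusted p = 0.0537). In cirrhosis a call appeared without healthy replicate 3 (log2 fold change -0.72) or replicate 5 (-0.65). With all libraries, Fdft1 was called lower in cirrhosis by edgeR (-0.612, adjusted p = 0.0381) and by DESeq2 (-0.605, adjusted p = 0.03). How far hepatocyte RNA entered the difference in Fdft1 was not tested.

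**Figure D2:**
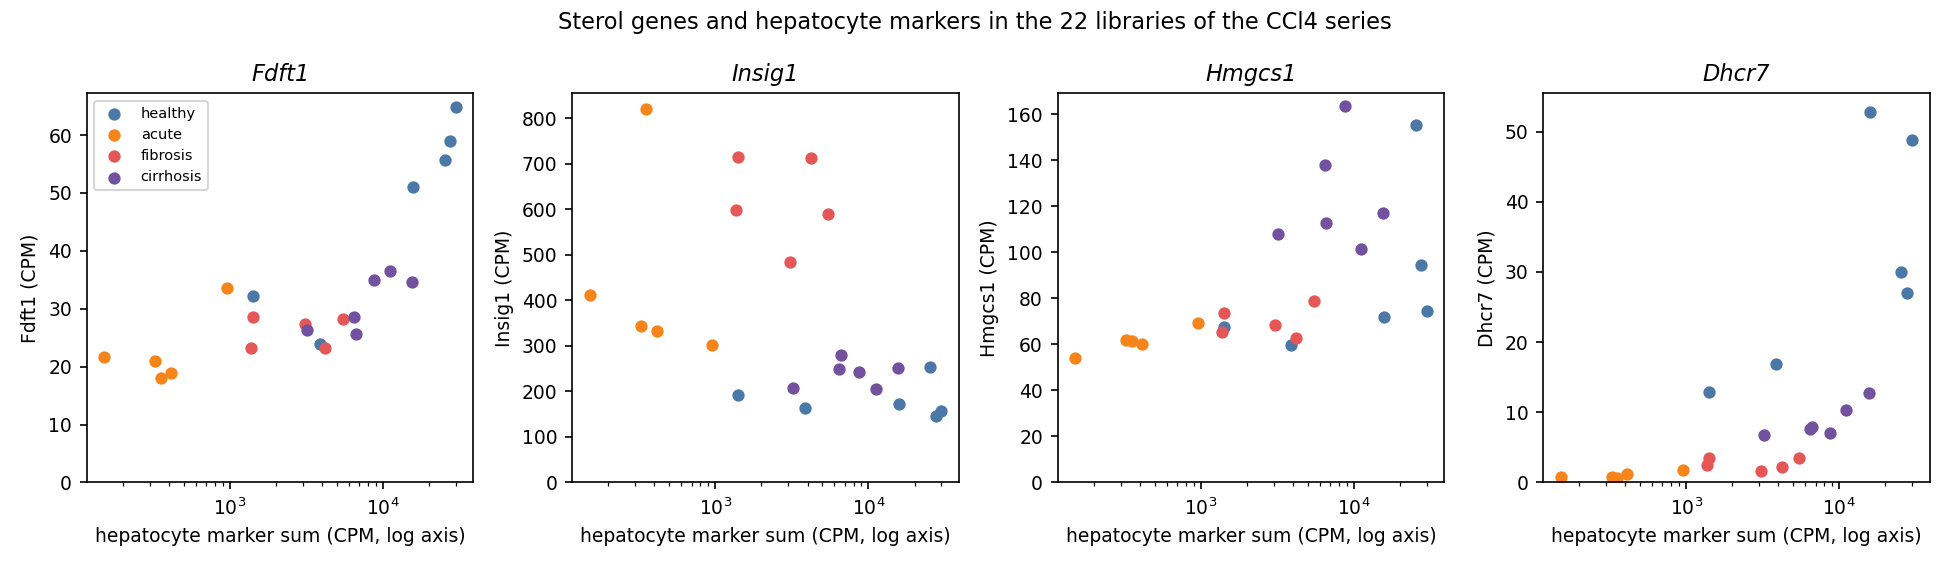
Levels of Fdft1, Insig1, Hmgcs1 and Dhcr7 (CPM, y axis) against the summed level of 12 hepatocyte markers (CPM, log axis) in each of the 22 libraries of the CCl4 series, coloured by group. The 4 healthy libraries rich in hepatocyte markers have 51.0 to 64.8 CPM of Fdft1, while Insig1 is highest in acute and fibrosis libraries. Healthy replicates 3 and 5, with 3872 and 1409 CPM of hepatocyte markers, have 163 and 193 CPM of Insig1.

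Counted together, 2 of the 7 members were called in acute injury, 1 higher and 1 lower, where 73.4% of all 14317 genes tested were called. In fibrosis the count was again 2, the same genes in the same directions, against 70.2% of 14538 genes. These comparisons share the healthy libraries, as does that with cirrhosis. Groups did not overlap for 1 of 7 members, Insig1, in each, while 60% and 58.7% of all genes did not overlap. The median log2 fold change of the members was 0.11 in acute injury and 0.14 in fibrosis, against -0.09 and -0.03 over all genes tested.

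Srebf2, the regulator, was 84.7 to 117 CPM in acute and 80.6 to 101 CPM in fibrosis libraries, within the 70.6 to 151 CPM of healthy ones. Its log2 fold changes against healthy were 0.11 (95% interval -0.39 to 0.60) and 0.06 (-0.41 to 0.53). Cirrhosis libraries had 65.3, 59.7, 57.9, 73.4, 80.8 and 67.5 CPM. The log2 fold change of Srebf2 in cirrhosis was -0.47 (SE 0.211, limma-voom adjusted p = 0.0716) against healthy. Against fibrosis it was -0.48 (SE 0.0959, limma-voom adjusted p = 0.00063), a 1.39-fold difference under the fold threshold, and the ranges overlapped.

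Hmgcs1 encodes the cytosolic HMG-CoA synthase at the entry to the mevalonate pathway. It was 72.0, 94.7, 59.7, 74.4, 67.6 and 155 CPM in healthy replicates 1 to 6. Acute libraries had 54.1 to 69.4 CPM and fibrosis libraries 65.5, 73.7, 62.6, 78.9 and 68.4 CPM. Cirrhosis libraries had 117, 102, 138, 113, 164 and 108 CPM, above every fibrosis library and above every healthy library except replicate 6. Hmgcs1 rose 1.75-fold from fibrosis to cirrhosis (log2 fold change 0.81, SE 0.119, limma-voom adjusted p = 5.28e-05). In that comparison 10 of 12 hepatocyte and 11 of 12 LSEC markers were also called higher, against 34.3% of all genes. The part of these markers in the rise of Hmgcs1 was not tested. The log2 fold change of Hmgcs1 in cirrhosis against healthy was 0.57 (SE 0.214, limma-voom adjusted p = 0.0356), just under the fold threshold, and without healthy replicate 6 it was 0.74 (adjusted p = 0.00158).

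Sqle, the squalene epoxidase that starts the oxygen-dependent part of the route, was called higher in cirrhosis. It was 13.2, 10.1, 11.01, 13.1, 9.83 and 17.9 CPM in healthy replicates 1 to 6 and 19.7, 16.3, 16.6, 21.1, 22.9 and 19.7 CPM in cirrhosis replicates 1 to 6. Healthy replicate 6 alone reached into the cirrhosis range. Sqle rose 1.57-fold (log2 fold change 0.65, SE 0.164, limma-voom adjusted p = 0.00506). Without healthy replicate 5 the log2 fold change was 0.57 (adjusted p = 0.0103), under the fold threshold. Acute libraries had 10.7 to 19.1 CPM and fibrosis libraries 12.9 to 19.3 CPM, with log2 fold changes of 0.14 and 0.42 against healthy (limma-voom adjusted p = 0.563 and 0.0636). The fibrosis value passed both thresholds without TMM factors (0.82, adjusted p = 0.00326) and against healthy replicates 3 and 5 alone (0.67, adjusted p = 0.0127).

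Idi1, the isomerase that makes dimethylallyl diphosphate, varied most among healthy rats. Its healthy levels were 15.6, 4.04, 13.6, 8.21, 18.9 and 34.1 CPM, an 8.45-fold range, while the range was 1.33-fold to 1.54-fold within the acute, fibrosis and cirrhosis groups. Acute libraries had 15.8, 13.8, 13.1, 17.6 and 17.3 CPM and fibrosis libraries 18.7, 22.9, 24.8, 23.1 and 18.6 CPM, without overlap. The log2 difference between them was 0.55 (SE 0.119, limma-voom adjusted p = 0.0121), under the fold threshold. Against healthy, the log2 fold changes were 0.26, 0.77 and 0.74 in acute injury, fibrosis and cirrhosis (limma-voom adjusted p = 0.579, 0.111 and 0.11). Without healthy replicate 6, Idi1 passed both thresholds in fibrosis (log2 fold change 1.02) and cirrhosis (1.03), as it did without TMM factors (1.18 and 1.09).

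Lss encodes lanosterol synthase, which closes the sterol ring system. It was 6.72 to 12.7 CPM in healthy, 6.95 to 11.4 CPM in acute, 9.89 to 11.3 CPM in fibrosis and 7.05 to 9.93 CPM in cirrhosis libraries. No comparison with healthy passed the test, with log2 fold changes of -0.12 (95% interval -0.61 to 0.37), 0.14 (-0.28 to 0.55) and -0.20 (-0.60 to 0.20). Between fibrosis and cirrhosis the log2 fold change was -0.28 (limma-voom adjusted p = 0.0273), under the fold threshold.

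In cirrhosis, 1 of 7 members was called against healthy, where 51.8% of 14789 genes tested were called. Groups did not separate for any member, against 27.2% of all genes. Between cirrhosis and fibrosis 2 of 7 were called, Hmgcs1 higher and Insig1 lower, against 63.8% of 15186 genes, and the same 2 did not overlap, against 63.3%. Between fibrosis and acute injury 0 of 7 were called by limma-voom, edgeR or DESeq2, against 11% of 13931 genes in either direction and 10.2% higher. An unadjusted p under 0.05 was found for 3. The limma-voom adjusted p was under 0.05 for 2 of 7 members and for 2826 of the 13931 genes. With means ordered across the 4 CCl4 groups, the step of Insig1 from cirrhosis to acute injury was the only one between neighbours in which the ranges did not overlap, for any of the 7 members.

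**Figure D3:**
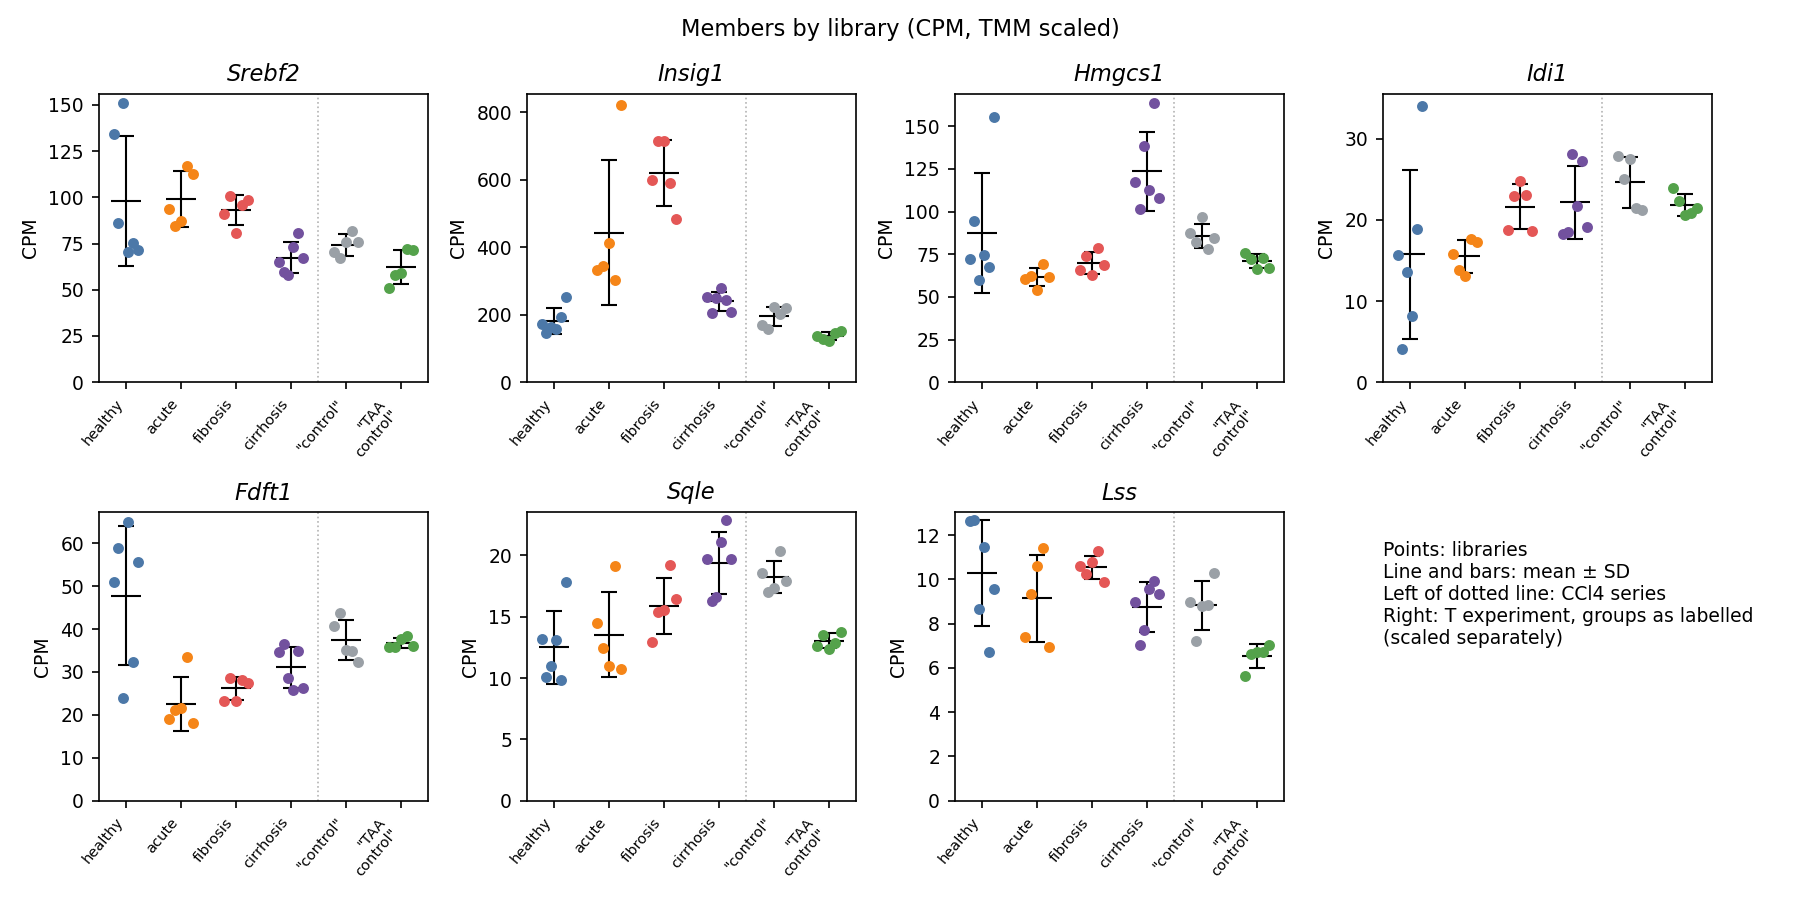
Level of each member (CPM, linear axis from 0) in every library, 1 panel per gene, with the mean and SD of each group. Insig1 stands above the healthy libraries in all 10 acute and fibrosis libraries, and Hmgcs1 in cirrhosis stands above all fibrosis libraries.

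**Figure D4:**
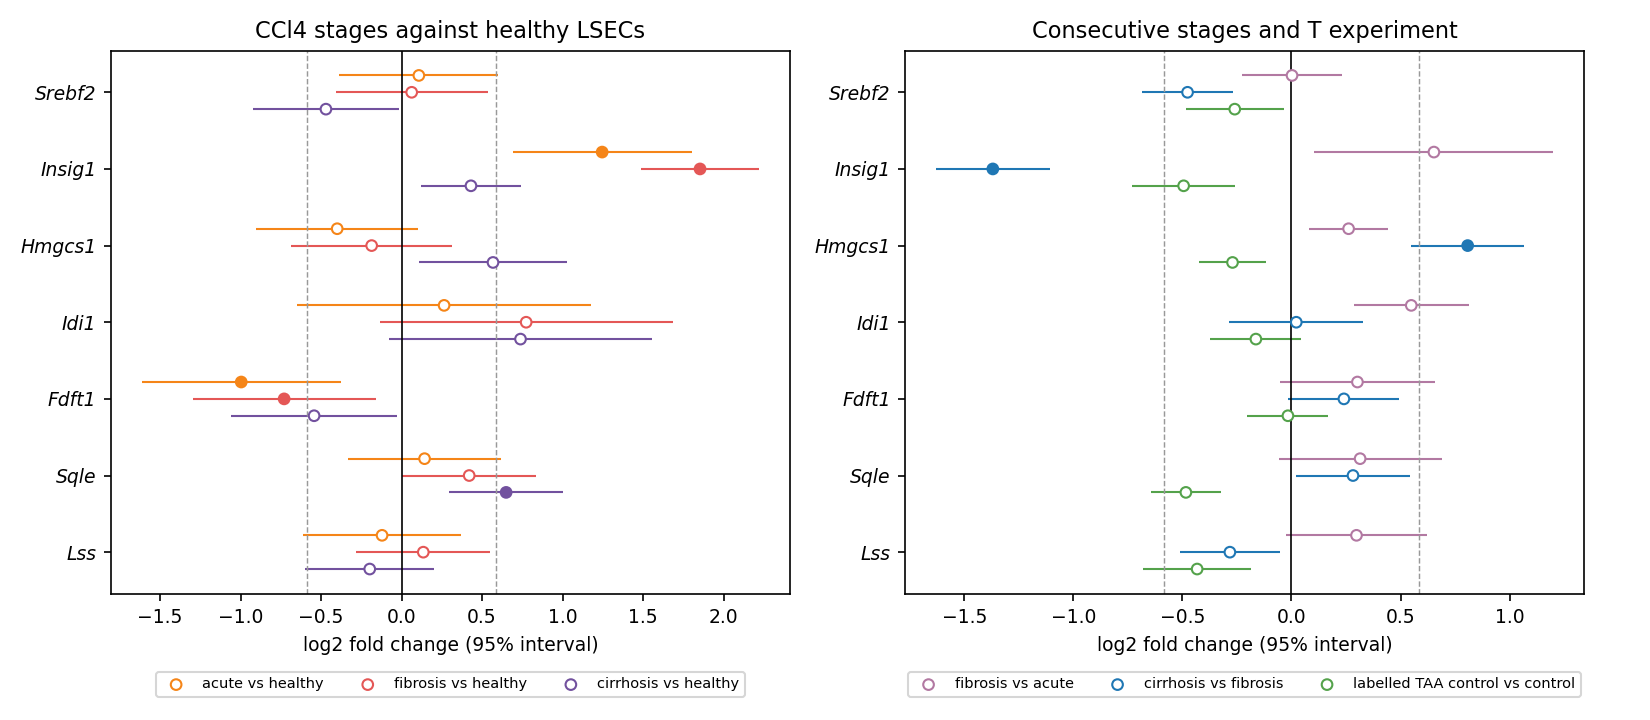
Log2 fold changes of the 7 members with 95% intervals, against healthy LSECs (left) and between consecutive CCl4 stages or the groups of the TAA experiment (right). Filled points were called, dashed lines mark a fold change of 1.5, and the Insig1 points of 1.25 and 1.85 lie farthest to the right.

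In the TAA experiment, 0 of 7 members were called by limma-voom, edgeR or DESeq2, where 27.6% of 14376 genes tested were called. All differences were under the fold threshold, and 5 members had an unadjusted p under 0.05. The limma-voom adjusted p was under 0.05 for 4 of 7 members and for 7139 of the 14376 genes. Groups did not overlap for 4 of 7, against 35.4% of all genes, and all 4 were lower in the group labelled TAA control. Sqle was 18.5, 17.03, 17.3, 20.4 and 17.9 CPM in the libraries labelled control and 12.6, 13.5, 12.4, 12.9 and 13.8 CPM in those labelled TAA control. Its log2 fold change was -0.48 (SE 0.0733, limma-voom adjusted p = 0.000411).

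Insig1 was 158 to 222 CPM in the libraries labelled control and 123 to 152 CPM in those labelled TAA control (log2 fold change -0.49, limma-voom adjusted p = 0.00325). Hmgcs1 was 77.8 to 96.6 CPM against 66.5 to 75.9 CPM (-0.27, limma-voom adjusted p = 0.00857). Lss was 7.22 to 10.3 CPM against 5.64 to 7.05 CPM (-0.43, limma-voom adjusted p = 0.00882). Srebf2 (-0.26), Idi1 (-0.16) and Fdft1 (-0.02) overlapped between the groups and did not pass the adjusted test. In the same libraries hepatocyte markers summed to 2410 to 5968 CPM in the group labelled control and 698 to 1588 CPM in the other. Stellate cell markers summed to 2106 to 5233 CPM against 344 to 537 CPM. Dissociation genes summed to 12560 to 25610 CPM in the group labelled control and 42200 to 61610 CPM in the other. There 10 of 10 were called higher, against 12.7% of all genes. Proliferation genes summed to 62.5 to 212 CPM against 47.2 to 85.0 CPM. Of these 8 of 8 were called lower in the group labelled TAA control, against 14.9% of all genes. LSEC markers summed to 20240 to 25070 CPM against 25280 to 32520 CPM. The part of these markers in the differences of the members was not tested.

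Of 16 other enzymes of cholesterol synthesis, 10 were called lower and 1 higher in acute injury, where 37.9% and 35.5% of all genes were called in these directions. In fibrosis 8 were lower and 2 higher, against 34.9% and 35.3%, and in cirrhosis 7 were lower, against 24.7%. Their median log2 fold change was -1.01 in acute injury, -1.01 in fibrosis and -0.60 in cirrhosis. Against healthy replicates 3 and 5 alone, 7 were lower and 2 higher in acute injury, 5 and 3 in fibrosis, and 4 and 2 in cirrhosis. Without TMM factors 7, 6 and 4 were lower in the same comparisons. The directions of all called genes moved as well. Higher were 48.4%, 50.3% and 52.2% of them in the main fit, and 58.2%, 60.9% and 71.3% without TMM factors. Against healthy replicates 3 and 5 alone 50.4%, 49.3% and 44% were higher. The same shares stand behind such counts for the other lists below.

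Dhcr7, the reductase that makes cholesterol from 7-dehydrocholesterol, was far below healthy in both early stages. It was 12.9 to 52.8 CPM in healthy, 0.695 to 1.75 CPM in acute and 1.57 to 3.49 CPM in fibrosis libraries, without overlap (log2 fold changes -4.73 and -3.39, limma-voom adjusted p = 7.53e-06 and 4.46e-05). Against healthy replicates 3 and 5 alone, the values were -3.68 and -2.48 (adjusted p = 1.4e-05 and 8.1e-05). Dhcr7 was lowest in the 2 healthy libraries lowest in hepatocyte markers, and the part of these markers was not tested.

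**Figure D5:**
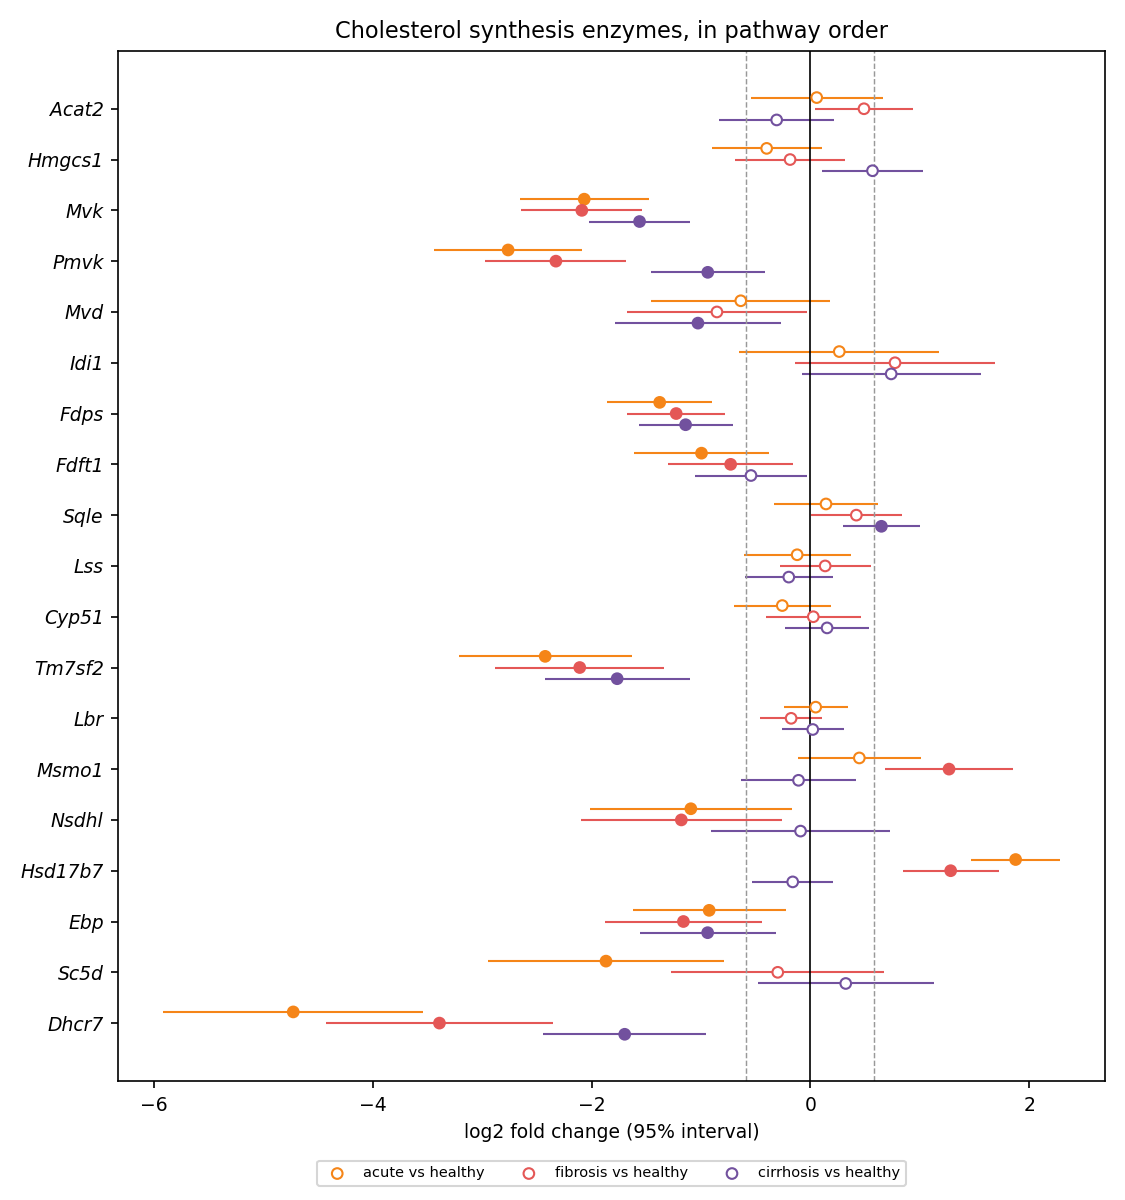
Log2 fold changes with 95% intervals of 19 cholesterol synthesis enzymes, the 5 members among them included, in the order of the pathway from top to bottom. Filled points were called, and the values run from -4.73 for Dhcr7 in acute injury to 1.88 for Hsd17b7 in the same comparison.

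Among the regulators, Insig2, the paralog of Insig1, lay on the other side of healthy. It was 12.0 to 36.3 CPM in healthy, 9.15 to 10.3 CPM in acute and 8.26 to 10.4 CPM in fibrosis libraries, without overlap (log2 fold changes -0.89 and -0.92, limma-voom adjusted p = 0.0124 and 0.0114). Against healthy replicates 3 and 5 alone the values of Insig2 were -0.18 and -0.35, and without TMM factors -0.47 and -0.52, none of which passed the test. Scap, the escort of SREBP, was 96.9 to 217 CPM in healthy and 59.4 to 84.6 CPM in cirrhosis libraries (log2 fold change -1.34, limma-voom adjusted p = 0.000253). Its log2 fold change was -0.61 in fibrosis, just past the fold threshold, and -0.41 in acute injury, which was not called. The fibrosis call was lost without TMM factors (-0.21), with DESeq2 size factors (-0.58), without healthy replicate 1 (-0.54), 3 (-0.57) or 4 (-0.56) and without fibrosis replicate 12 (-0.57) or 15 (-0.56).

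Srebf1, which encodes the SREBP of fatty acid synthesis, was lower in all 3 comparisons with healthy (log2 fold changes -1.76, -1.65 and -0.91). Against healthy replicates 3 and 5 alone the values of Srebf1 were -0.64 in acute injury and -0.66 in fibrosis, both just past the fold threshold. The call of Srebf1 in cirrhosis was lost against healthy replicates 3 and 5 alone (0.0795), without TMM factors (-0.56) and without single libraries of either group. Mbtps2, a protease that releases SREBP from the membrane, rose by a log2 fold change of 2.87 in acute injury, 2.68 in fibrosis and 1.41 in cirrhosis. Nr1h3, the oxysterol receptor LXR alpha, was 23.2 to 156 CPM in healthy, 3.85 to 10.8 CPM in acute and 3.499 to 5.14 CPM in fibrosis libraries (log2 fold changes -3.38 and -4.00). Against healthy replicates 3 and 5 alone the values of Nr1h3 were -1.82 and -2.58, still called. Of 9 regulators tested, 2 were higher and 4 lower in acute injury, 2 higher and 6 lower in fibrosis, and 2 higher and 4 lower in cirrhosis. Called in either direction were thus 6, 8 and 6 of 9, against 73.4%, 70.2% and 51.8% of all genes. Without TMM factors 3 were higher and 3 lower in fibrosis, and 2 and 2 in cirrhosis.

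Of 13 genes of cholesterol uptake and intracellular transport, 9 were lower and 2 higher in acute injury, 8 lower and 3 higher in fibrosis, and 5 lower and 3 higher in cirrhosis. Called in either direction were thus 11, 11 and 8 of 13, against 73.4%, 70.2% and 51.8% of all genes. Against healthy replicates 3 and 5 alone, 5 were lower and 3 higher in acute injury, and 5 lower and 5 higher in cirrhosis. Without TMM factors 4 were lower and 3 higher in fibrosis. Mylip, a ubiquitin ligase induced through the oxysterol receptors, was lower in acute injury (-1.77) and fibrosis (-0.85, or -0.45 without TMM factors and then not called).

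Lrp8, a receptor for apolipoprotein E and reelin, had the largest rise of the uptake list. It was 1.14 to 6.63 CPM in healthy, 102 to 166 CPM in acute, 139 to 180 CPM in fibrosis and 7.85 to 15.7 CPM in cirrhosis libraries. Its log2 fold changes against healthy were 5.66, 5.79 and 1.99 (limma-voom adjusted p = 3.63e-08, 2.46e-08 and 0.000585).

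Of 8 tested genes of cholesterol export, storage and oxidation, 3 were higher and 3 lower in acute injury, 4 higher and 3 lower in fibrosis, and 2 lower in cirrhosis. The 6, 7 and 2 called compare with 73.4%, 70.2% and 51.8% of all genes. Abca1, the transporter that loads cholesterol onto apolipoprotein A-I, was 94.4 to 161 CPM in healthy, 504 to 647 CPM in acute, 478 to 660 CPM in fibrosis and 137 to 244 CPM in cirrhosis libraries. Like Insig1, Abca1 was called higher in acute injury (log2 fold change 2.16, limma-voom adjusted p = 2.94e-07) and fibrosis (2.16, limma-voom adjusted p = 3.34e-07), and lower in cirrhosis than in fibrosis (-1.55, limma-voom adjusted p = 1.57e-06). Abcg1, which exports cholesterol to HDL, was called higher in fibrosis (0.66, not called without healthy replicate 5 or 6) and lower in cirrhosis than in fibrosis (-0.94). Apoe, an apolipoprotein, was 4158 to 8918 CPM in healthy, 125 to 208 CPM in acute and 312 to 930 CPM in fibrosis libraries (log2 fold changes -5.21 and -3.42). Cyp27a1, the sterol 27-hydroxylase, had log2 fold changes of -3.56, -2.69 and -1.83 in acute injury, fibrosis and cirrhosis, each called lower.

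Genes of isoprenoid use, which draw on the same mevalonate, were divided, with 5 higher and 4 lower of 10 in acute injury, 5 and 5 in fibrosis, and 2 and 5 in cirrhosis. Called in either direction were 9, 10 and 7, against 73.4%, 70.2% and 51.8% of all genes. Without TMM factors the counts of this list were 5 and 1, 5 and 3, and 5 and 4. The prenyltransferase subunits Pggt1b and Rabggtb rose in acute injury (log2 fold changes 2.23 and 1.83) and fibrosis (2.14 and 1.95). In the fatty acid list, 7 of 11 tested were lower and 2 higher in acute injury and again in fibrosis, against 37.9% and 35.5% of all genes in acute injury and 34.9% and 35.3% in fibrosis, with Scd, the stearoyl-CoA desaturase, at -4.79 and -1.84 and Acacb, an acetyl-CoA carboxylase, at -4.75 and -3.47. The fibrosis value of Scd was 0.0796 against healthy replicates 3 and 5 alone and lost its call without most single libraries. In cirrhosis 4 of 12 were lower and 1 higher, against 24.7% and 27.1% of all genes. Against healthy replicates 3 and 5 alone, 4 of 11 were higher in acute injury (Acly, Acaca, Fasn and Me1) with 7 lower, and in cirrhosis 1 was lower (Acacb) and 1 higher (Elovl6), named after their values were seen. Without TMM factors 1 was lower and 2 higher in cirrhosis. Between fibrosis and cirrhosis 26 of the 68 other pathway genes tested were higher and 21 lower, against 34.3% and 29.5% of all genes.

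Within groups the members did not vary as a unit. Across the 22 CCl4 libraries, after group means were removed, the Pearson correlation of the 21 pairs of members had a median of 0.169 and ran from -0.369 to 0.587, with 13 pairs positive. Sqle (0.68) and Hmgcs1 (0.59) followed the mean of the other 6 members most closely, and Insig1 (-0.02) and Srebf2 (-0.08) least. Of 8653 genes ranked by their likeness to the mean of the 7 members over these libraries, the closest were Apob (0.744), Cp (0.741), Met (0.732), Gnpnat1 (0.728), Abcb1a (0.72), F9 (0.718), Sc5d (0.715), Papss2 (0.699), C9 (0.697) and Cd302 (0.691). Apob, Cp, F9 and C9 encode plasma proteins made by hepatocytes. In the 10 libraries of the TAA experiment the same measure was -0.639 for Apob and -0.703 for F9, and the 21 pairs had a median of -0.155. Libraries may share a preparation, which the labels do not give, and these correlations carry no test.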

How the data were processed

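RNA of rat LSECs was sequenced from poly(A) libraries made with a strand-specific kit. Per the study's methods and processing notes, reads were mapped to Rnor_6.0 with STAR and quantified with RSEM. For each library the authors deposited RSEM expected counts (estimated counts, 10.3% to 12.4% not whole) for 32623 genes, neither normalized nor pooled. Ambiguous reads are split among genes by estimate.

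Expected counts were rounded and tested with limma-voom 3.58.1 (R 4.3.3), TMM factors and filterByExpr, on the libraries of the 2 groups compared and without covariates. The study names limma-voom, TMM and the fold change of 1.5 with unadjusted p-values. Benjamini-Hochberg adjusted p-values over all genes tested were used here. CPM used edgeR 4.0.16, with a pseudocount of 0.5 where log2 CPM was correlated. Alternatives were edgeR's quasi-likelihood test, DESeq2 1.42.0, other scaling, no low-count filter, unadjusted p-values, no fold threshold, a fit over 4 groups, a replicate block and leaving out each library. The procedure was tested on simulated data, where a larger share of the calls of DESeq2 than of limma-voom was false and limma-voom recovered a smaller share of 2-fold than of 3-fold changes. Figures were drawn with matplotlib 3.10.9.

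The 7 members, the pathway and marker lists and the rule for named genes were chosen with earlier results of these data known. Other pathway genes named are core regulators and transporters fixed by the rule and, in each list, the 2 with the largest called change against healthy, except that some genes are not reported here. Hsd17b7 was named after its values were seen. Groups follow the sample labels. Replicates 14 and 15 labelled TAA control were the closest pair of libraries (chi-square per degree of freedom 2.96, next 23.6) but differed by more than sampling noise and were kept as 2. The cBDL and human libraries were not analysed here.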

Additional observations from a re-analysis of the deposited data

Results flagged for a closer look

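Lss in replicate 10 of the group labelled TAA control, at 5.64 CPM, lay apart from the other 4 libraries of its group, which ranged from 6.64 to 7.05 CPM. It was the 1 library set apart by Dixon's criterion among 42 combinations of member and group, where about 2.1 are set apart by chance.

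Consecutive CCl4 stages differed for 7 combinations of member and stage, by limma-voom with Benjamini-Hochberg adjustment and without a fold threshold. These fits held the libraries of the 2 stages alone, so no healthy library entered them. By the same rule 2826 of all 13931 genes tested were called between fibrosis and acute injury. Between cirrhosis and fibrosis 11895 of 15186 were called. Between acute injury and fibrosis, Hmgcs1 (log2 difference 0.26, adjusted p = 0.0458) and Idi1 (0.55, adjusted p = 0.0121) were higher in fibrosis. Between fibrosis and cirrhosis, Insig1 (-1.37), Srebf2 (-0.48) and Lss (-0.28) were lower in cirrhosis, and Hmgcs1 (0.81) and Sqle (0.28) were higher. Of these, Insig1 and Hmgcs1 between fibrosis and cirrhosis exceeded a fold change of 1.5.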

How the results depend on the processing

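Outside the fits without single libraries, 317 of 364 values of single members under an alternative kept their direction and their side of the thresholds, 23 passed the thresholds newly, 4 no longer passed them and 20 changed sign. The cause was not tested except where an alternative only moves a threshold or the scaling. Most of the 317 are differences that were not called in the main fit and stayed so. The 364 include values under unadjusted p-values and no fold threshold, where no call could be lost and no sign could change.

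Without TMM factors, the median log2 fold change of all genes moved by 0.408 in acute injury, 0.398 in fibrosis, 0.346 in cirrhosis and -0.107 between cirrhosis and fibrosis. The share of called genes that were higher went from 50.3% to 60.9% in fibrosis and from 52.2% to 71.3% in cirrhosis. All genes called were 10540 of 14317 in acute injury, 10242 of 14538 in fibrosis and 8027 of 14789 in cirrhosis. The members called were then 1 in acute injury and 4 in cirrhosis (Sqle, Insig1, Hmgcs1 and Idi1), Fdft1 lost its calls (-0.58 in acute injury and -0.33 in fibrosis), Sqle (0.819) and Idi1 (1.18) gained calls in fibrosis, and changed signs were Hmgcs1 in acute injury (0.0109) and fibrosis (0.211), Lss in acute injury (0.283) and cirrhosis (0.143), Srebf2 between fibrosis and acute injury (-0.0615) and Idi1 between cirrhosis and fibrosis (-0.0866).

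In cirrhosis against healthy, members called were 2 with edgeR, 2 with DESeq2, 2 without the low-count filter, 2 in a fit over 4 groups and 3 without a fold threshold. All genes called were 7564, 7914 and 8557 of 14789 with edgeR, with DESeq2 and without a fold threshold. They were 8420 of 22196 without the filter and 8313 of 15578 in the fit over 4 groups. Between fibrosis and acute injury the members called were 1 with unadjusted p-values and 2 without a fold threshold. Without it they were 5 between cirrhosis and fibrosis, against 11895 of 15186 genes, and 4 in the TAA experiment. With unadjusted p-values 2189 of 13931 genes were called between fibrosis and acute injury. Genes called between fibrosis and acute injury were 2826 of 13931 without a fold threshold and 746 of 15578 in the fit over 4 groups, which left 7 pathway genes. In the TAA experiment they were 7139 of 14376, with 36 pathway genes, without a fold threshold. Srebf2 changed sign in fibrosis with edgeR (-0.00613) and in the fit over 4 groups (-0.00507), and between fibrosis and acute injury with edgeR (-0.0071), DESeq2 (-0.0113), DESeq2 size factors (-0.00174), no filter (-0.0195) and the fit over 4 groups (-0.078).

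Of 1509 called values of other named pathway genes under an alternative, 1440 were kept, 67 lost and 2 changed sign. The 1440 include values under unadjusted p-values and no fold threshold, where a call could not be lost.

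With healthy replicates 3 and 5 alone, chosen after seeing the data, members called were 1 in acute injury, 2 in fibrosis and 2 in cirrhosis, and Sqle gained a call in fibrosis (0.673). All genes called were 9884 of 14700, 9755 of 14951 and 6417 of 15598 in the same comparisons. These 2 libraries were the lowest healthy ones in Fdft1, Lss and Hmgcs1, so an upward move of these members was fixed by the choice. Signs changed for Hmgcs1 (0.122) and Lss (0.416) in acute injury, Srebf2 (-0.122) and Hmgcs1 (0.204) in fibrosis, and Fdft1 (0.158) and Lss (0.211) in cirrhosis.

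Without single libraries, members called ranged from 1 to 3 in fibrosis (1 without fibrosis replicate 12 or 15, 3 without healthy replicate 6), from 1 to 3 in cirrhosis and from 0 to 1 between fibrosis and acute injury, where all genes called ranged from 1011 (without acute replicate 1) to 2166. All genes called ranged from 9777 to 10360 in fibrosis and from 6833 to 8478 in cirrhosis. Values that changed sign ranged from -0.0817 to 0.662 for Idi1 and -0.254 to 0.014 for Lss in acute injury, -0.0688 to 0.187 for Srebf2 in fibrosis, -0.0568 to 0.0658 for Srebf2 between fibrosis and acute injury, -0.039 to 0.0806 for Idi1 between cirrhosis and fibrosis and -0.0701 to 0.042 for Fdft1 in the TAA experiment.

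Replicate numbers are shared by healthy, acute and cirrhosis libraries of different rats. Same-numbered libraries deviated together with r of 0.0313 to 0.187 in 4 healthy-acute pairs and -0.242 to 0.29 in 6 healthy-cirrhosis pairs, and correlated best with their own number in 5 of 8 and 1 of 12 libraries. With the replicate block, 10896 and 7275 genes were called in acute injury and cirrhosis, against 10502 and 7660, and Srebf2 in acute injury changed sign (-0.0397).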
